A study of Gallus gallus with 9 samples.

Results

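Chicken preadipocytes given an adipogenic cocktail, which the labels call DMIOA, together with 10 uM retinoic acid were compared with untreated preadipocytes, so that the joint change of the cocktail and the retinoid was measured across all genes. The members were taken by label: the 3 arrays titled as DMIOA with retinoic acid and the 3 arrays titled as control, 6 of the 9 arrays of the series. The other 3 arrays held cells given DMIOA alone and entered only the estimate of spread and the side-by-side values. All cells came from the abdominal fat of laying hens and were confluent when treated. The labels do not spell out DMIOA, give no exposure time, and do not say which hen or culture a numbered replicate came from, so p-values here reflect only how these samples spread, which may be technical. Titles of the control and DMIOA arrays carry a "(2)" that those with retinoic acid lack, and the labels do not explain it. Because the control received neither agent, the effects of DMIOA and of retinoic acid cannot be told apart in this contrast alone.

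Retinoic acid, made from vitamin A, enters the nucleus and binds retinoic acid receptors that sit on DNA with retinoid X receptors. Genes that break the acid down, such as those of the CYP26 family, and the HOX genes, which give cells their position along the body axis, are classical targets. Preadipocytes are fibroblast-like precursors that become fat cells under a hormone cocktail through CEBP factors and the receptor PPARG, and added retinoic acid is known for blocking this step in cultured mammalian preadipocytes.

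Levels are log2 GCRMA values per probe set, where a difference of 1 is a 2-fold change. On the 6 arrays the medians over all probe sets lay within the 2.49 to 2.54 of the whole series. Of 37693 chicken probe sets, 12329 had a value of at least 5 on at least 3 of the 9 arrays and were tested, and these covered 6945 named genes. Of the 15 measured preadipocyte and stromal markers, 14 or 15 reached 5 on each array, a share that the filter itself largely set. COL1A1, the fibrillar collagen gene, had 14.19, 13.99 and 14.32 in control replicates 1 to 3 and 13.88, 13.85 and 14.20 with DMIOA and retinoic acid. Of 19 preadipocyte and stromal markers with a probe set, PDGFRA, a receptor gene of fat-cell precursors, stayed at no more than 3.53 on every array. ENG, NT5E and GREM1 were not kept either, at no more than 3.96, 2.08 and 4.36. Replicate 3 stood apart in all groups, and the measured leukocyte markers moved with it. Their median over 13 members was 2.03, 2.34 and 9.60 in control replicates 1 to 3. With DMIOA and retinoic acid it was 2.17, 2.33 and 7.25. Members at 5 or more numbered 1, 3 and 13 in control replicates 1 to 3, so most passed the filter through the replicate 3 arrays. Of 21 listed markers with a probe set the others were not kept, such as C1QA (9.34 in control replicate 3) and CD4 (at most 1.34). Retinoic acid replicates 1 and 2 were the closest arrays (r = 0.997 across kept probe sets), followed by control replicates 1 and 2 (r = 0.995). In either group, p-values would be too small if replicates 1 and 2 were not separate cultures. In bulk RNA, fewer cells of a type and less RNA per cell cannot be told apart.

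Between control and DMIOA plus retinoic acid, limma with the replicate number as a block called 3546 of 12329 probe sets at a Benjamini-Hochberg adjusted p under 0.05, which is 28.8%. Of these 1943 (15.8%) were higher and 1603 (13.0%) lower, and the median difference over all kept probe sets was 0.08. With cyclic loess scaling the split was 1453 higher and 1865 lower. By named gene, 1113 of 6945 (16.0%) rose and 854 (12.3%) fell, 28.3% in all, and these shares are the background for every gene list described here. The lists were chosen with earlier results of these data known, so a list's share is not independent evidence. Counting a value below 5 as 5, 444 probe sets called higher and 679 called lower differed at least 2-fold, 36 and 57 at least 8-fold, and 13 and 15 at least 16-fold. Groups did not overlap at 4758 of the 12329 probe sets (38.6%) and at 2863 of the 3546 called. Without the replicate block 1623 probe sets (13.2%) were called, 831 higher (6.74%) and 792 lower (6.42%), all but 1 of them among the 3546. Leaving out replicate 1 or 2 of the control or retinoic acid group reduced the calls to between 1343 and 1582, while leaving out replicate 3 of either group gave 3101 and 3477.

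**Figure D1:**
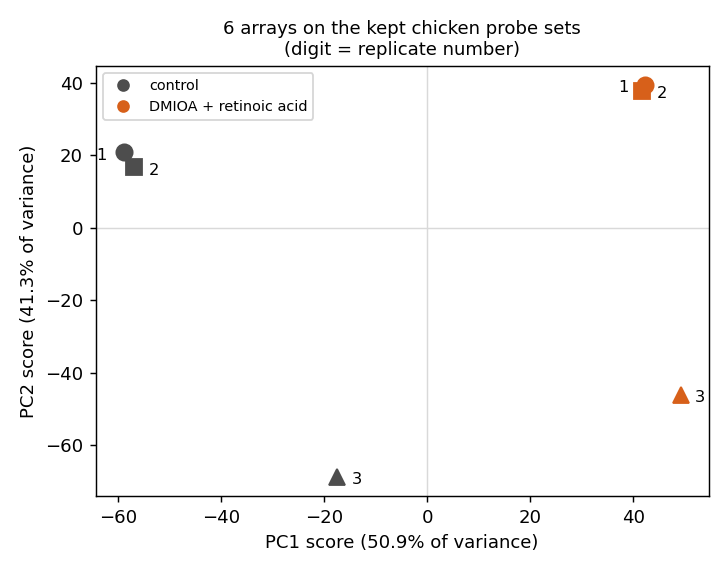
Scores of the 6 arrays on the first and second principal components of the 12329 kept probe sets, with colour for the group and symbol and digit for the replicate number. The retinoic acid arrays score 41.7 to 49.2 on the horizontal axis and the control arrays -58.9 to -17.4, while replicate 3 of both groups lies lowest on the vertical axis, at -68.6 and -46.0.

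The first principal component held 50.9% of the variance, and on it the 3 retinoic acid arrays scored 41.7 to 49.2 and the 3 control arrays -58.9 to -17.4. On the second, with 41.3%, replicate 3 scored -68.6 in control and -46.0 with DMIOA and retinoic acid, and the other 4 arrays lay between 16.6 and 39.3. Control replicate 3 was therefore the control array nearest to the treated ones on the first component.

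The change was larger in pairs 1 and 2 than in pair 3. Within a pair (the treated array minus the control array of the same number), the differences over 12329 probe sets had an SD of 0.95, 0.93 and 0.77 in pairs 1, 2 and 3. Across probe sets they correlated at r = 0.956 between pairs 1 and 2, 0.689 between 1 and 3 and 0.707 between 2 and 3. Probe sets at least 2-fold higher in both pair 1 and pair 2 numbered 572, of which 215 (37.6%) were also 2-fold higher in pair 3 and 0 were 2-fold lower there, where 4.02% of all kept probe sets rose 2-fold. Of the 786 that were 2-fold lower in pairs 1 and 2, 380 (48.3%) were 2-fold lower in pair 3, against 5.12% of all kept, and 6 were 2-fold higher. All 3546 called probe sets had the same sign in the 3 pairs, as did 8019 of the 12329.

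**Figure D2:**
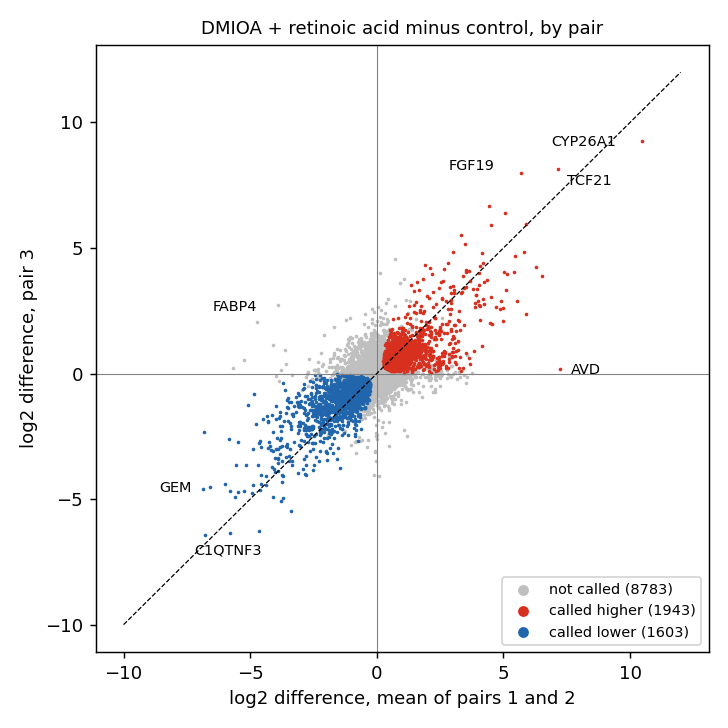
Each point is 1 of the 12329 kept probe sets, with the mean log2 difference (DMIOA plus retinoic acid minus control) of pairs 1 and 2 on the horizontal axis and that of pair 3 on the vertical axis; red and blue mark the 1943 called higher and 1603 called lower, and the dashed line marks equal differences. CYP26A1, TCF21, FGF19, GEM and C1QTNF3 lie far from 0 on both axes, AVD is high on the horizontal axis alone (0.20 in pair 3), and FABP4 is lower in pairs 1 and 2 and higher in pair 3.

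The largest rise of a named gene was that of a retinoid-degrading enzyme. CYP26A1 (gene ID 408183), whose enzyme hydroxylates and so inactivates retinoic acid, had 1.80, 1.88 and 2.03 in control and 12.23, 12.37 and 11.30 with DMIOA and retinoic acid. Every control array was below 5 and every treated array above 11, so the gene was at least 125-fold higher (log2 difference 10.07 ± 0.25, SE; limma adjusted p = 3.52e-05). The paralogue CYP26B1 (gene ID 428809) had 2.53, 2.25 and 2.46 against 8.26, 8.33 and 8.43, at least 10.1-fold higher (adjusted p = 3.52e-05). CYP26C1, the next gene to CYP26A1 in the RefSeq GRCg7b gene order, had 2.44, 2.10 and 1.92 against 5.09, 5.05 and 6.33 (adjusted p = 0.00184). All 3 CYP26 genes were thus below 5 on each control array and above it on each treated array. CYP26A1 and CYP26B1 were below 5 on every DMIOA array too, so the filter kept them only because all 3 treated arrays passed.

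Other steps of the pathway moved as well, and not all upwards. RDH10, which oxidises retinol to retinaldehyde, had 8.48, 8.52 and 8.08 in control and 12.01, 12.05 and 12.13 with the treatment, a 13.0-fold rise (adjusted p = 0.000116). The cellular retinol carrier gene RBP5 rose 11.4-fold, from 5.82, 6.19 and 5.75 to 9.95, 9.81 and 8.55. DHRS3, which reduces retinaldehyde back to retinol, rose 6.77-fold (adjusted p = 0.00951), with control values of 10.29, 10.30 and 8.59 and treated values of 12.47, 12.45 and 12.53. In contrast ALDH1A3, which makes retinoic acid from retinaldehyde, fell 4.43-fold, from 12.27, 12.22 and 11.15 to 9.99, 10.08 and 9.12 (adjusted p = 0.000225). Groups did not overlap at any of these 4 genes, as at 38.6% of all kept probe sets and 2863 of the 3546 called. Of the 10 measured retinoid metabolism genes 6 rose and 1 fell, with a median log2 difference of 3.05 beside 0.09 over all named genes. The list had 18 members with a probe set. Of those not kept, ALDH1A2, CRABP1, STRA6 and LRAT stayed at no more than 3.85, 1.72, 2.34 and 2.12 on every array. BCO1, also not kept, reached 5.11 in control replicate 1. CYP26A1 and CYP26B1 were kept only through the treated arrays. The filter therefore partly set this count and median. The 6 rises were called in each fit that left out 1 array, and the falls numbered 3 without control replicate 3, 4 without retinoic acid replicate 3 and 2 without DMIOA replicate 2.

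Among the receptors and their coregulators 2 of 6 measured genes rose, which is 33.3% called against 28.3% of all named genes. RARB, the retinoic acid receptor gene that is itself a retinoid target, had 9.82, 9.90 and 7.74 in control and 11.14, 11.14 and 10.42 with the treatment, a rise of 1.75 ± 0.33 on the log2 scale (adjusted p = 0.0122). Its call was lost without control replicate 1 (0.0540) and without the block. NRIP1, a corepressor that receptors recruit when bound to ligand, rose 2.01-fold, from 10.01, 10.05 and 9.78 to 10.93, 11.00 and 10.92 (adjusted p = 0.00310). The probe set of RARA stayed at no more than 3.75 on every array.

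**Figure D3:**
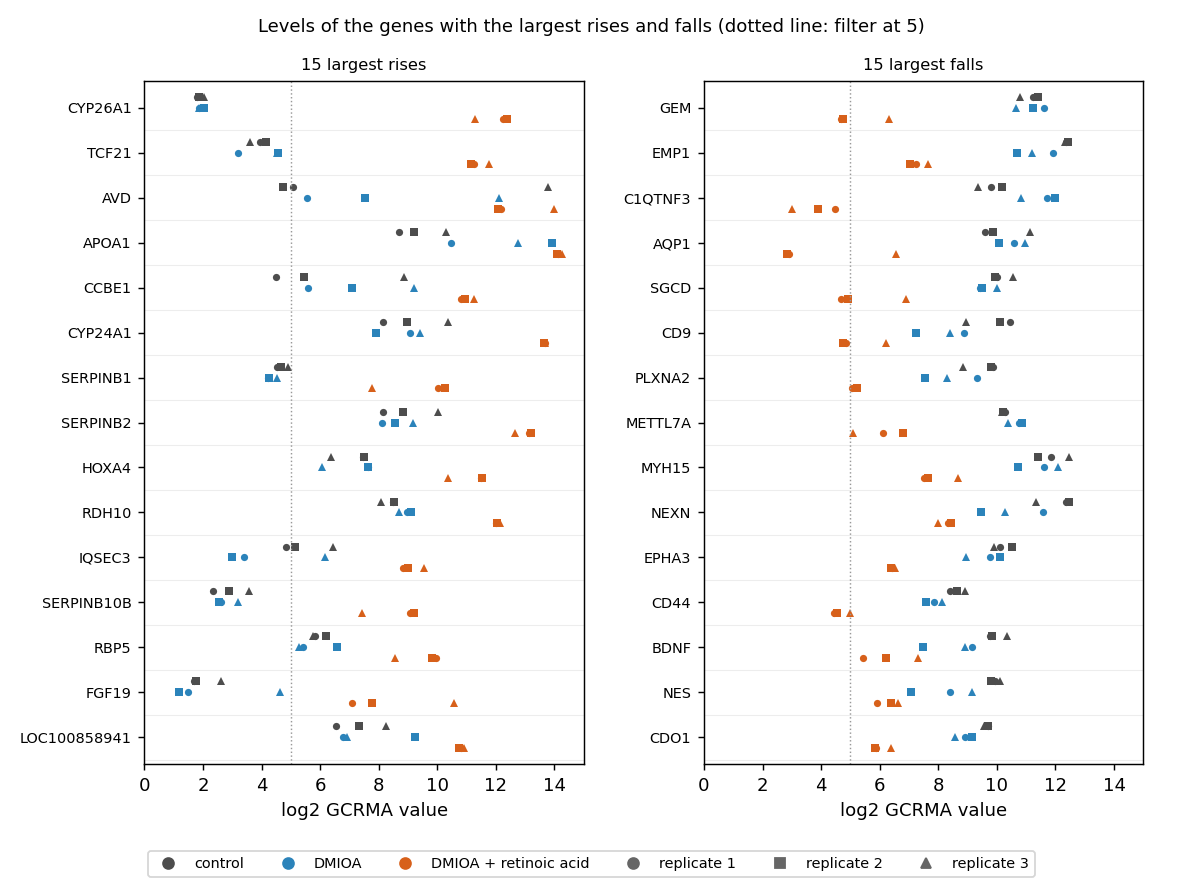
Log2 GCRMA values on all 9 arrays of the genes with the 15 largest rises and 15 largest falls, ranked by the fold with values below 5 counted as 5. Colour gives the group, symbol the replicate number, and the dotted line the filter at 5; the groups compared overlap only at AVD, where control replicate 3 lies among the treated arrays.

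HOX genes of the front part of the A cluster rose together while a neighbour fell. HOXA4 (gene ID 395307) had 7.47, 7.51 and 6.37 in control and 11.49, 11.52 and 10.37 with DMIOA and retinoic acid, a 16.1-fold rise (log2 4.01 ± 0.13, adjusted p = 9.94e-05). HOXA3 rose 5.20-fold (9.07, 9.04 and 7.82 to 11.29, 11.29 and 10.48) and HOXA5 at least 9.56-fold (4.99, 5.53 and 3.85 to 8.97, 9.12 and 7.21). HOXA6 rose 4.80-fold, from 9.66, 9.64 and 8.89 to 11.97, 11.89 and 11.11 (adjusted p = 0.000195), although another HOXA6 probe set differed by 0.48 and was not called (adjusted p = 0.158). These 4 genes follow one another in the RefSeq GRCg7b order, and every treated array exceeded every control array at each. Over all kept probe sets, groups did not overlap at 38.6%. The next gene, HOXA7, went the other way, from 9.50, 9.47 and 8.81 to 8.68, 8.61 and 8.24 (log2 -0.75 ± 0.10, adjusted p = 0.00426), a call lost without the block.

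Replicate 3 was the lowest array of its group at each of these 5 genes, in control and with the treatment. Of 12 measured HOX genes 6 rose and 2 fell. HOXD8, the other fall, had 6.56, 7.06 and 6.24 in control and 4.67, 4.69 and 5.34 with the treatment, at least 2.84-fold lower (adjusted p = 0.0112, and 0.0586 at most without control replicate 1 or 2, where its call was lost). The list had a median of 0.54, 0.61 and 1.12 in pairs 1, 2 and 3.

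**Figure D4:**
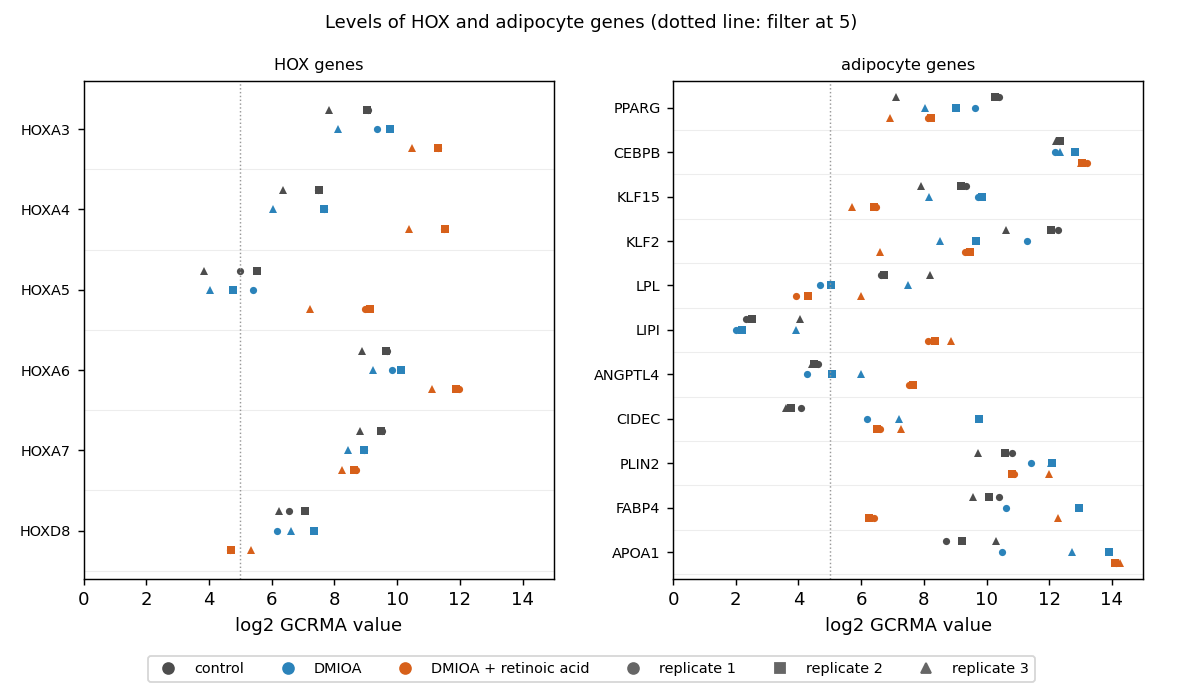
Log2 GCRMA values on all 9 arrays for 6 HOX genes (left) and 11 adipocyte or lipid genes (right), with colour for the group, symbol for the replicate number and a dotted line at the filter of 5. HOXA3 to HOXA6 lie higher and HOXA7 and HOXD8 lower with retinoic acid, while FABP4 with retinoic acid is low in replicates 1 and 2 (6.41 and 6.26) and high in replicate 3 (12.28).

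TCF21 (gene ID 421697), a basic helix-loop-helix factor gene of mesenchymal precursors, had the next largest rise. Its values were 3.93, 4.16 and 3.60 in control and 11.26, 11.16 and 11.76 with DMIOA and retinoic acid, at least 84.1-fold higher (adjusted p = 0.000180). It was below the filter on each control array and among the bright genes on each treated one. As its DMIOA arrays were below 5 too, the filter kept it only because all 3 treated arrays passed. Of 18 measured developmental transcription factor genes outside HOX 3 rose and 3 fell, which is 33.3% called against 28.3% of all named genes. PRRX2, a homeobox gene of mesenchyme, was at least 6.44-fold lower (8.12, 8.37 and 8.10 to 5.04, 4.75 and 6.49). MSX1, another homeobox gene, rose by 0.74 ± 0.15 on the log2 scale, and leaving out the block, control replicate 1 or treated replicate 2 ended that call (adjusted p 0.0698 at most over single arrays). The list had 1 rise without control replicate 1 or retinoic acid replicate 2, 1 fall without control or retinoic acid replicate 2 and 5 falls without retinoic acid replicate 3, and its median was 0.08.

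APOA1 (gene ID 396536), the main protein of high-density lipoprotein, had 8.70, 9.21 and 10.31 in control and 14.12, 14.08 and 14.26 with the treatment, a 26.8-fold rise (adjusted p = 0.00470), and its other probe set differed by 4.69 on the log2 scale. FGF19, an endocrine fibroblast growth factor gene, had 1.69, 1.77 and 2.61 against 7.08, 7.76 and 10.58, at least 11.1-fold higher (adjusted p = 0.00118). CCBE1, a secreted factor of lymphatic growth, rose at least 23.6-fold (4.50, 5.44 and 8.87 to 10.81, 10.94 and 11.25). At all 3 genes the control of replicate 3 was the highest control, yet below every treated array. FGF19 was below 5 on every control and DMIOA array, so it passed the filter only through the treated arrays.

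Avidin (AVD), the biotin-binding protein of egg white, depended on the replicate. It had 5.07, 4.74 and 13.79 in control and 12.19, 12.07 and 13.99 with the treatment. Control replicate 3 was above treated replicates 1 and 2, so the groups overlapped, and the difference was 7.12 in pair 1, 7.34 in pair 2 and 0.20 in pair 3. Its call (adjusted p = 0.0418) was lost without the block, with the 6 compared arrays alone and on leaving out replicate 1 or 2 of any group or DMIOA replicate 3 (adjusted p up to 0.158).

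A run of intracellular serpins, inhibitors of serine proteases, rose together. SERPINB1 had 4.53, 4.66 and 4.89 in control and 10.02, 10.25 and 7.77 with DMIOA and retinoic acid, at least 20.3-fold higher (adjusted p = 0.00362). SERPINB10B had 2.35, 2.88 and 3.56 against 9.06, 9.20 and 7.43, at least 11.8-fold higher, and SERPINB2 rose 16.2-fold, from 8.13, 8.82 and 10.01 to 13.14, 13.21 and 12.66. SERPINB6 rose 3.40-fold (10.21, 10.11 and 10.46 to 12.21, 12.19 and 11.69). In the RefSeq GRCg7b order SERPINB1, SERPINB6, SERPINB10A, SERPINB10B and SERPINB2 lie next to each other, and SERPINB10A was not among the kept genes. The 4 measured genes were each highest in retinoic acid replicates 1 and 2 and less high in replicate 3. SERPINB1 and SERPINB10B were below 5 on every control and DMIOA array. The filter kept these genes only because all 3 treated arrays passed, so their rise is partly built in. Of 17 measured protease and inhibitor genes 5 rose and 2 fell; the falls numbered 0 without replicate 1 or 2 of control or retinoic acid, 4 without control replicate 3 and 1 without DMIOA replicate 1 or 3.

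CYP24A1 (gene ID 395827), whose enzyme inactivates vitamin D, rose 22.8-fold, from 8.14, 8.97 and 10.35 to 13.67, 13.63 and 13.68 (adjusted p = 0.00212). The treated arrays were nearly equal, with an SD of 0.03, and the spread lay in the controls, with an SD of 1.12. TRPV6, a calcium channel gene that vitamin D raises in mammalian gut, fell 5.65-fold (8.36, 8.40 and 8.82 to 5.79, 5.59 and 6.70; adjusted p = 0.00136). The vitamin D list had 4 measured genes, of which 2 rose and 1 fell, with 1 rise without replicate 1 or 2 of control or retinoic acid or any DMIOA array. IQSEC3, a guanine nucleotide exchange factor gene for ARF GTPases, rose at least 12.1-fold (4.85, 5.14 and 6.45 to 8.84, 9.0 and 9.56). The gene named only as LOC100858941 rose 11.0-fold (6.53, 7.32 and 8.26 to 10.82, 10.75 and 10.92), a call lost without control replicate 1 or 2 (adjusted p up to 0.0550).

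Of 11 measured caveola and membrane genes 10 fell. GEM (gene ID 404771), a small GTPase that restrains calcium channels, had 11.22, 11.42 and 10.80 in control and 4.68, 4.76 and 6.30 with DMIOA and retinoic acid, at least 52.4-fold lower (adjusted p = 0.00125), and its other probe set differed by -5.45. EMP1, an epithelial membrane protein gene, fell 33.6-fold, from 12.37, 12.44 and 12.34 to 7.24, 7.05 and 7.64 (log2 -5.07 ± 0.27, adjusted p = 0.000256). The water channel gene AQP1 had 9.60, 9.87 and 11.14 against 2.91, 2.83 and 6.54, at least 25.8-fold lower. These controls were bright on every array, and replicate 3 was the least reduced of the treated arrays at each of the 3 genes.

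SGCD, a sarcoglycan gene of the dystrophin complex, was at least 23.2-fold lower (10.00, 9.95 and 10.55 to 4.69, 4.93 and 6.89). METTL7A, a methyltransferase-like protein gene of lipid droplets, fell 18.6-fold (10.28, 10.22 and 10.17 to 6.12, 6.79 and 5.10). CAV1, the main coat protein gene of caveolae, had 6.55, 6.55 and 8.0 against 2.62, 3.10 and 3.93, at least 4.09-fold lower (adjusted p = 0.000417). The list had a median of -3.82, and 8 to 10 members fell in each fit that left out 1 array. The list had been drawn up from earlier results of these samples and is not independent evidence of its direction.

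The 15 largest falls held further genes outside that list. The tetraspanin gene CD9 was at least 21.4-fold lower (10.44, 10.11 and 8.93 to 4.85, 4.75 and 6.21). CD44 (gene ID 395666), the hyaluronan receptor that marks stromal cells, had 8.41, 8.64 and 8.92 against 4.45, 4.54 and 4.98, at least 12.6-fold lower (adjusted p = 7.27e-05), and its 2 other probe sets differed by -2.88 and -3.89. BDNF, a neurotrophin gene, fell 12.6-fold (9.76, 9.84 and 10.34 to 5.42, 6.22 and 7.31). At CD44 the lowest control exceeded the highest treated array by more than 3 units of log2. The intermediate filament gene NES fell 12.6-fold, the actin-binding gene NEXN 13.9-fold, and CDO1, which oxidises cysteine, 12.3-fold (9.68, 9.69 and 9.57 to 5.87, 5.83 and 6.38; adjusted p = 0.000374).

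COL6A2, a chain of the beaded-filament collagen, had 11.64, 11.57 and 11.71 in control and 8.92, 9.08 and 9.50 with the treatment, a 5.57-fold fall (adjusted p = 0.00222). COL8A1 fell 3.98-fold (13.50, 13.46 and 13.67 to 11.26, 11.22 and 12.18) and COL6A3 3.08-fold (13.08, 13.03 and 13.13 to 11.40, 11.43 and 11.55). COL18A1, a basement membrane collagen gene, fell by 2.13 ± 0.13 on the log2 scale although its groups overlapped (9.68, 9.73 and 11.73 against 7.47, 7.54 and 9.74), and its call was lost without the block. Of 16 measured collagen genes 11 fell and 0 rose, with a median of -1.06 and pair medians of -1.40, -1.22 and -0.63. The fall count was 8 to 12 in fits without 1 array. COL1A1 differed by -0.19 (95% interval -0.46 to 0.08; adjusted p = 0.239), COL1A2 by -0.21 and COL3A1 by 0.15, and none of the 3 was called. COL1A1 lay between 13.85 and 14.32 on the 6 arrays, near the highest value of the table (14.96), and whether its probe set was saturated was not tested.

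Periostin, a matricellular protein encoded by POSTN (gene ID 395429), had 13.32, 13.52 and 13.32 in control and 9.92, 9.98 and 9.84 with DMIOA and retinoic acid, an 11.1-fold fall (log2 -3.47 ± 0.11, adjusted p = 7.27e-05). The groups were far apart, with SDs of 0.11 and 0.07. MFAP5, a microfibril protein gene, fell 5.32-fold (11.52, 11.73 and 11.29 to 9.04, 9.07 and 9.18). THBS2, which encodes thrombospondin 2, fell 3.08-fold, a call lost without the block, and LOXL3, a collagen crosslinking enzyme gene, 2.54-fold (adjusted p = 0.00136). Of the 33 measured matrix protein genes 11 fell and 6 rose, with a median of -0.45. Without retinoic acid replicate 3 the falls numbered 16, and the rises were 2 or 3 without replicate 1 or 2 of control or retinoic acid.

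Contractile and muscle genes fell where they changed. ACTA2, the smooth muscle actin gene, had 8.79, 8.80 and 8.66 in control and 5.87, 6.28 and 6.16 with the treatment, a 6.25-fold fall (adjusted p = 0.00290). LMO7, an actin-linked LIM domain gene, fell 6.18-fold (11.16, 11.49 and 12.49 to 8.59, 8.68 and 9.99; adjusted p = 0.000179). Of 19 measured contractile genes 6 fell and 0 rose, with a median of -0.27 and 31.6% called against 28.3% of all named genes. The falls numbered 3, 3, 3 and 2 without control replicate 1, 2 or 3 or retinoic acid replicate 1. There was 1 rise without control replicate 3 or DMIOA replicate 2. MYH15, a myosin heavy chain gene, fell 15.6-fold, from 11.86, 11.40 and 12.45 to 7.50, 7.66 and 8.67 (adjusted p = 0.000218). MYH1E, another myosin heavy chain gene, was at least 8.25-fold lower (7.02, 8.09 and 9.03 to 3.42, 4.24 and 4.08). The M-band gene MYOM2 was at least 4.77-fold lower, with 8.13, 8.07 and 5.56 against 2.52, 2.56 and 1.92. Its DMIOA arrays were below 5 too, so MYOM2 passed the filter only through the control arrays and its fall is partly built in. Of 32 skeletal muscle markers 6 were measured, of which 5 fell and 0 rose. That is 83.3% called against 28.3% of all named genes, a share that the filter partly set through MYOM2.

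Of the Notch pathway, 4 of 7 measured genes fell and 0 rose, which is 57.1% called against 28.3% of all named genes. DLL1 (gene ID 395820), a ligand of Notch receptors, had 7.31, 7.08 and 7.53 in control and 2.12, 2.40 and 2.76 with DMIOA and retinoic acid, at least 4.95-fold lower (adjusted p = 0.000116). Its DMIOA arrays were below 5 too, so DLL1 passed the filter only through the control arrays and its fall is partly built in. HES4, a transcription factor gene that Notch switches on, was at least 8.46-fold lower (8.10, 8.25 and 8.39 to 4.49, 4.36 and 5.50). LFNG, which modifies the sugar chains of Notch receptors, fell 3.61-fold (10.32, 10.44 and 11.15 to 8.23, 8.34 and 9.78), a call lost without the block. The ligand gene JAG1 had 5.02, 5.40 and 5.21 in control and 3.89, 3.99 and 4.56 with the treatment, at least 1.16-fold lower, and dropping treated replicate 1 or 2 ended its call (highest adjusted p 0.0541). NOTCH1 and NOTCH2 differed by -0.24 and -0.26 and were not called.

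In the TGF-beta and BMP list 8 of 17 measured genes fell and 2 rose, with a median of -1.01. TGFB1, a ligand, had 8.62, 8.63 and 8.59 in control and 6.72, 7.21 and 7.14 with the treatment, a 3.01-fold fall (adjusted p = 0.00428). SMAD3, the transducer of TGF-beta receptors, rose 3.75-fold, from 8.92, 8.98 and 9.78 to 11.07, 11.09 and 11.25 (adjusted p = 0.00136). CHRD, an extracellular BMP inhibitor, was at least 1.35-fold lower. The fall count was 3 without control replicate 1 or 2 or retinoic acid replicate 1 and 4 without retinoic acid replicate 2, and the rises numbered 1 without any control or retinoic acid array or DMIOA replicate 3.

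FGF genes changed in both directions. FGF7, a ligand that acts on epithelia through FGFR2, had 8.15, 8.67 and 7.21 in control and 4.61, 3.49 and 2.75 with the treatment, at least 8.05-fold lower (adjusted p = 0.000755). FGFR2 itself rose 3.87-fold (6.52, 6.99 and 8.09 to 8.78, 8.79 and 9.89; adjusted p = 0.00453). SPRY1, a feedback inhibitor of FGF signalling, rose by 1.29 ± 0.28, and its call was lost without the block and without replicate 1 of either group, control replicate 2 or retinoic acid replicate 3 (adjusted p up to 0.0888). With FGF19, the list of 11 measured FGF genes had 5 rises and 2 falls, and 2 rises without control replicate 1 or 2 or retinoic acid replicate 1 or 3 and 3 without DMIOA replicate 1 or treated replicate 2. The falls numbered 1 without control replicate 2 or 3, DMIOA replicate 3 or treated replicate 1 or 2.

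Genes of 2 carriers of insulin-like growth factors fell. IGFBP4 fell 6.63-fold, from 9.31, 9.0 and 9.50 to 5.79, 5.94 and 7.90 (adjusted p = 0.00436), and IGFBP7 3.96-fold, from 12.07, 11.98 and 11.44 to 9.53, 9.71 and 10.30. Of 10 measured IGF genes 4 fell and 2 rose, and the rises were 0 without replicate 1 or 2 of control or retinoic acid and 1 without replicate 3 of any group, with 2 falls without control replicate 1. Among Wnt genes 5 of 17 rose and 1 fell, which is 35.3% called against 28.3% of all named genes. Their rises numbered 1 without control replicate 1 or 2 or retinoic acid replicate 1 and 3 without retinoic acid replicate 2 or 3. The Wnt falls numbered 0 without any control array or retinoic acid replicate 1 or 2, and 2 without DMIOA replicate 2. The ligand gene WNT9A rose 4.80-fold (7.33, 7.16 and 9.35 to 9.65, 9.85 and 11.14; adjusted p = 0.00275), a call lost without the block. The receptor gene FZD4 rose by 0.87 ± 0.18, a call lost without control replicate 1 or 2 or retinoic acid replicate 1 (adjusted p up to 0.0840).

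Receptors that guide cell migration changed in opposite directions within a family. PLXNA4, a semaphorin coreceptor gene, had 2.09, 2.11 and 1.77 in control and 6.61, 6.62 and 7.68 with DMIOA and retinoic acid, at least 3.91-fold higher (adjusted p = 0.000357). PLXNA2, its paralogue, fell 20.4-fold, from 9.87, 9.81 and 8.84 to 5.05, 5.21 and 5.21 (adjusted p = 0.00170). So the plexin that was bright in control was dim after the treatment, and the one at the floor in control was measured after it. The ephrin receptor gene EPHA3 fell 13.4-fold (10.12, 10.52 and 9.91 to 6.43, 6.37 and 6.51), and the slit receptor gene ROBO2 was at least 2.94-fold higher. Of 24 measured guidance genes 9 fell and 3 rose, with 4 falls without control replicate 1 or 2, 5 without retinoic acid replicate 1 or 2 and 6 without control replicate 3. NTN1 reached 5 on fewer than 3 arrays and so was not tested. It had 2.05, 1.93 and 1.79 in control and 7.44, 6.34 and 3.09 with the treatment.

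Of 20 measured adhesion genes 8 fell and 1 rose. The integrin chain gene ITGA2 reached 5 on fewer than 3 arrays and so was not tested. It had 3.79, 3.9 and 2.47 in control and 7.85, 8.04 and 4.48 with the treatment. ITGA6, the laminin receptor chain, fell 3.19-fold (10.74, 10.67 and 10.89 to 8.88, 8.83 and 9.59; adjusted p = 0.00251), and the integrin chain gene ITGA3 2.71-fold. CDH13, a cadherin anchored by a lipid that binds adiponectin in mammals, fell by 0.99 ± 0.09 on the log2 scale. The tight junction gene CLDN1 was the rise, at 9.41, 8.94 and 6.18 against 11.17, 11.36 and 10.39, and its call was lost without the block, control replicate 1 or treated replicate 2 or 3 (highest adjusted p 0.0990). The falls numbered 5 without control replicate 1 or 2, retinoic acid replicate 1 or DMIOA replicate 3.

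Adipocyte genes changed in both directions. LPL, the lipase that frees fatty acids from lipoproteins, had 6.63, 6.73 and 8.18 in control and 3.91, 4.30 and 5.99 with DMIOA and retinoic acid, at least 3.61-fold lower (adjusted p = 0.00181), a call lost without the block. Its protein inhibitor gene ANGPTL4 went from 4.62, 4.48 and 4.44 to 7.53, 7.64 and 7.64, at least 6.08-fold higher (adjusted p = 0.00255). LIPI, a membrane-bound phospholipase gene related to LPL, was at least 11.0-fold higher (2.32, 2.53 and 4.05 to 8.14, 8.35 and 8.88). Its DMIOA arrays were below 5 too, so LIPI passed the filter only through the treated arrays. LPL was thus lower in each pair and its inhibitor ANGPTL4 higher in each. C1QTNF3 (gene ID 427430), a secreted relative of adiponectin, was at least 27.4-fold lower, with 9.81, 10.16 and 9.36 in control and 4.48, 3.90 and 3.02 with the treatment (adjusted p = 0.000116).

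Lipid storage genes differed between replicates. FABP4, the fatty acid carrier of fat cells, had 10.39, 10.07 and 9.57 in control and 6.41, 6.26 and 12.28 with the treatment. It was lower in pairs 1 and 2 and higher in pair 3, and was not called (log2 -1.70, 95% interval -4.98 to 1.59). Pair 3 was the pair with high leukocyte markers, and any link between these and FABP4 was not tested. PLIN2, which coats lipid droplets, had 10.81, 10.58 and 9.74 against 10.88, 10.80 and 11.98 (0.84, interval -0.19 to 1.88). Its other probe set, with 7.77, 7.67 and 6.9 against 6.55, 6.76 and 8.37, differed by -0.22 and was not called. That probe set was lower in pairs 1 and 2 and higher in pair 3. CIDEC, which enlarges droplets, had 4.09, 3.76 and 3.59 against 6.59, 6.50 and 7.28, at least 3.46-fold higher (adjusted p = 0.0316). Its call was lost without any control array, retinoic acid replicate 1 or 3 or DMIOA replicate 3 (adjusted p up to 0.130). Of 12 measured genes 3 rose and 3 fell, and the medians were -0.25, -0.29 and 2.12 in pairs 1, 2 and 3. PLIN1, ADIPOQ, SCD and DLK1 stayed below 5 on all arrays, at no more than 2.58, 2.99, 3.77 and 1.44.

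Among adipogenic transcription factor genes 4 of 9 measured fell and 1 rose. PPARG, the receptor that drives fat-cell formation, had 10.41, 10.26 and 7.11 in control and 8.14, 8.22 and 6.91 with the treatment. It was lower in each pair, by 2.27, 2.04 and 0.20, and control replicate 3 overlapped the treated arrays. Its 2 other probe sets were called lower too, at -1.61 and -1.62. The call of the brightest (adjusted p = 0.0468) was lost without the block, with the 6 compared arrays alone and without replicate 1 or 2 of any group or DMIOA replicate 3 (adjusted p up to 0.176). KLF15, a factor that raises PPARG in mammalian fat cells, fell 6.12-fold (9.33, 9.19 and 7.92 to 6.48, 6.40 and 5.71; adjusted p = 0.000789). KLF2, which restrains PPARG in mammals, fell 9.18-fold (12.28, 12.04 and 10.63 to 9.30, 9.46 and 6.60), a call lost without the block. CEBPB, an early factor of adipogenesis, rose 1.75-fold (12.30, 12.35 and 12.20 to 13.20, 13.05 and 13.02), and its call was lost without control replicate 1 or 2 or retinoic acid replicate 1 (adjusted p up to 0.0708). CEBPA stayed at no more than 2.61. The falls numbered 2 without replicate 1 or 2 of control or retinoic acid, and the rises 0 without control replicate 1 or 2 or retinoic acid replicate 1 and 2 without DMIOA replicate 1.

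Of 13 measured glucocorticoid-responsive genes 1 rose and 2 fell, which is 23.1% called against 28.3% of all named genes. FKBP5, a chaperone of the glucocorticoid receptor, had 8.06, 8.17 and 8.98 in control and 6.50, 7.0 and 7.10 with the treatment, a 2.90-fold fall (adjusted p = 0.0220). Its call was lost without the block and without control replicate 1 or 3 or any retinoic acid array (adjusted p up to 0.0955). KLF15 and ANGPTL4, described above, were the other fall and the rise. The rises numbered 2 without retinoic acid replicate 3 or DMIOA replicate 1, and the falls 1 without control replicate 1 or 3 or any retinoic acid array. Of 12 cAMP-responsive genes 2 fell and 0 rose, which is 16.7% called. The cAMP falls numbered 0 without control replicate 2 or retinoic acid replicate 1 or 2. They numbered 1 without control replicate 1 or 3 or replicate 3 of retinoic acid or DMIOA.

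ACADS, the short-chain acyl-CoA dehydrogenase, had 7.93, 7.96 and 7.91 in control and 9.03, 9.12 and 8.87 with the treatment, a 2.11-fold rise (adjusted p = 0.00194). ETFDH, which passes electrons from these dehydrogenases to ubiquinone, rose 1.84-fold and HADHB, a subunit of the trifunctional protein, 1.77-fold. PPARA, the receptor gene that governs oxidation, had 6.30, 5.77 and 3.68 in control and lay below 5 on every treated array, a call lost without the block or control replicate 1 or 2 (adjusted p up to 0.0591). Of 15 measured oxidation and lipolysis genes 4 rose and 1 fell, with a median of 0.35 and 33.3% called against 28.3% of all named genes. In that list 0 fell without control replicate 1 or 2 and 2 without control replicate 3. Of 16 synthesis genes 4 rose and 1 fell, with a median of 0.27 and 31.25% called. The fall was AGPAT2, which makes phosphatidic acid (2.82-fold, lost without the block), and ACSL4, an acyl-CoA synthetase gene, rose 1.88-fold. The synthesis rises numbered 2 without replicate 1 or 2 of control or retinoic acid, and the falls 2 without control replicate 3.

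Cytokine and interferon genes included 8 rises and 4 falls among 23 measured. IFI27L2, an interferon-inducible gene, had 7.81, 7.17 and 6.08 in control and 10.86, 10.87 and 9.34 with DMIOA and retinoic acid, a 10.1-fold rise (adjusted p = 0.000292). TNFSF10, the death ligand TRAIL, rose 5.77-fold (9.05, 9.05 and 10.08 to 12.02, 11.96 and 11.78). IL16, a chemoattractant of CD4 cells, was at least 8.90-fold lower (8.02, 8.10 and 8.34 to 2.40, 2.53 and 3.41, adjusted p = 0.000789). Its DMIOA arrays were below 5 too, so IL16 passed the filter only through the control arrays and its fall is partly built in. IL18, an interferon-inducing cytokine gene, fell 3.74-fold, a call lost without the block. The rises numbered 4 without control replicate 1 or 2 or retinoic acid replicate 1 and 5 without retinoic acid replicate 2, with 2 falls without control replicate 2.

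Of 33 measured antioxidant and glutathione genes 13 rose and 3 fell, with a median of 0.26. GPX3, the secreted glutathione peroxidase, had 8.03, 7.86 and 8.41 in control and 11.21, 11.18 and 10.90 with the treatment, an 8.01-fold rise (adjusted p = 0.00362). GCLC, the catalytic subunit of glutathione synthesis, rose 1.79-fold (8.34, 8.42 and 8.59 to 9.18, 9.11 and 9.58), and MGST1, a membrane glutathione transferase gene, 1.58-fold. GSTA3, another transferase gene, was below 5 in replicates 1 and 2 of both groups and stood at 10.40 and 11.49 in replicate 3 of control and treatment (at least 1.29-fold higher), and its call was lost without the block. The rises numbered 5 or 6, and the falls 0 or 1, without replicate 1 or 2 of control or retinoic acid.

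HSPB1, a small heat shock protein gene, fell 2.09-fold (11.00, 10.92 and 11.17 to 9.89, 9.92 and 10.11; adjusted p = 0.00284), and TRIB2, a pseudokinase gene, 3.39-fold. CHAC1, a stress-induced enzyme gene that degrades glutathione, fell by 1.45 ± 0.20 on the log2 scale in groups that overlapped, a call lost without the block. Of 34 measured chaperone and stress genes 5 fell and 1 rose, with a median of -0.01 and 17.65% called against 28.3% of all named genes. The falls numbered 3 without control replicate 2 or retinoic acid replicate 1. The rises numbered 0 without replicate 1 or 2 of control or retinoic acid or DMIOA replicate 3, 3 without control replicate 3 and 2 without retinoic acid replicate 3. Of 48 respiratory chain genes 6 rose and 0 fell, which is 12.5% against 28.3% of all named genes. Those rises numbered 0 without replicate 1 or 2 of control or retinoic acid, 3 without replicate 3 of control or DMIOA and 4 without retinoic acid replicate 3. Among 22 glycolysis genes 4 rose and 2 fell, which is 27.3% called. Of these genes 0 rose without replicate 1 or 2 of control or retinoic acid and 2 without control replicate 3. The glycolysis falls numbered 0 without control replicate 1 or 2 or retinoic acid replicate 2 and 1 without replicate 3 of any group or retinoic acid replicate 1.

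Of 55 measured cell cycle genes 16 rose and 2 fell, which is 32.7% called against 28.3% of all named genes. The list had a median of 1.44, and the pair medians were 2.20, 1.90 and 0.15. The difference between pairs was not tested. NCAPG, a condensin subunit gene, had 4.82, 4.38 and 5.55 in control and 7.69, 7.44 and 6.20 with the treatment (adjusted p = 0.0279), and TTK, a spindle checkpoint kinase gene, had 3.03, 3.13 and 4.56 against 5.27, 5.12 and 5.22. CDKN1A, the p21 inhibitor of cyclin-dependent kinases, fell 1.57-fold (10.31, 10.32 and 10.33 to 9.53, 9.55 and 9.93; adjusted p = 0.0220). These 3 calls were each lost without replicate 1 or 2 of control or retinoic acid (adjusted p up to 0.114), that of TTK also without the block, and that of NCAPG also with the 6 compared arrays alone. The rises numbered 43 without retinoic acid replicate 3 or without replicate 3 of all groups, 4 without DMIOA replicate 1 and 12 without control replicate 3. They numbered 0 without replicate 1 or 2 of control or retinoic acid, and 2 without the block, and the falls 0 without those same arrays.

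Of 19 measured cholesterol genes 4 rose and 0 fell, which is 21.05% called against 28.3% of all named genes, and 1 of the 4 was APOA1, a lipoprotein gene. The list had pair medians of 0.98, 0.89 and -0.14. MVK, an early kinase of the pathway, had 5.34, 5.34 and 6.20 in control and 7.36, 7.64 and 6.73 with the treatment, a 3.06-fold rise (adjusted p = 0.0204). HSD17B7, a later enzyme, rose 2.13-fold in groups that overlapped (7.37, 7.83 and 9.76 against 8.92, 8.98 and 10.34). Both calls were lost without replicate 1 or 2 of control or retinoic acid (adjusted p up to 0.0887), that of HSD17B7 also without the block, and that of MVK also with the 6 compared arrays alone. The rises numbered 15 without control replicate 3, 14 without replicate 3 of all groups and 1 without replicate 1 or 2 of control or retinoic acid.

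**Figure D5:**
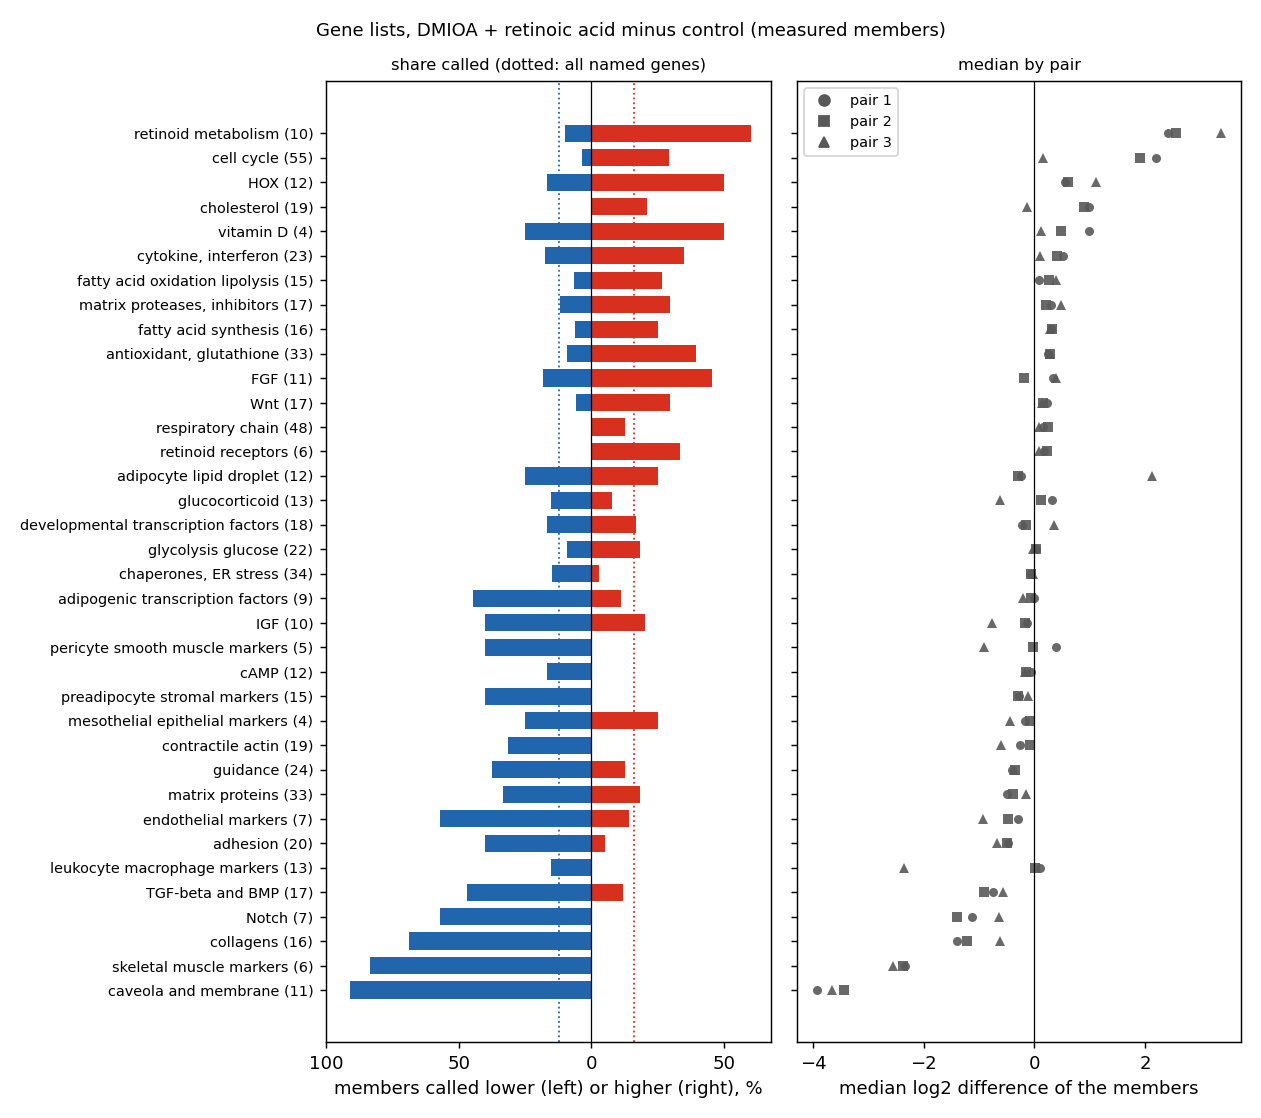
Left, the percentage of each list's measured members (number in brackets) called lower (blue) or higher (red) with DMIOA plus retinoic acid, with dotted lines at the shares over all named genes (12.3% lower, 16.0% higher). Right, the median log2 difference of the members in each pair; the adipocyte list has medians of -0.25, -0.29 and 2.12 in pairs 1, 2 and 3, and the leukocyte list 0.10, 0.02 and -2.35.

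Of 13 measured leukocyte and macrophage markers 2 fell and 0 rose (2 rose without control replicate 3). That is 15.4% called against 28.3% of all named genes. Their summed linear level was 192, 253 and 12873 in control replicates 1 to 3 and 151, 156 and 4582 with DMIOA and retinoic acid. TLR2A, a pattern recognition receptor gene, had 6.50, 6.72 and 9.61 in control and 2.98, 3.41 and 4.13 with the treatment, at least 6.09-fold lower (adjusted p = 0.00257). PTPRC, the pan-leukocyte antigen CD45, had 4.74, 5.80 and 7.90 against 3.18, 3.22 and 5.80, a call lost without the block. The list's pair medians were 0.10, 0.02 and -2.35, and the part of these cells in the results of pair 3 was not tested. Endothelial markers had 4 falls and 1 rise among 7 measured, led by the junction gene PECAM1 (6.82, 7.11 and 7.42 to 3.89, 3.83 and 5.31; adjusted p = 0.00136), with 1 fall without control replicate 2, 2 without DMIOA replicate 3 or treated replicate 1 or 2 and 0 rises without replicate 1 or 2 of control or retinoic acid or any DMIOA array. Their summed level was 3145 to 4745 in control and 2000 to 2969 with the treatment.

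CSPG4, a proteoglycan gene of pericytes, was at least 4.98-fold lower (7.29, 7.33 and 7.32 to 3.09, 2.82 and 3.25; adjusted p = 0.000180), and 2 of 5 measured pericyte markers fell. Of 15 measured preadipocyte and stromal markers 6 fell, CD44 and the calcium-binding protein gene S100A10 among them (the latter by 0.84 ± 0.09 on the log2 scale), and 0 rose. Their falls numbered 3 without control replicate 2 or 3 or retinoic acid replicate 2, and 1 rose without DMIOA replicate 1 or 2. In the pericyte and the stromal list alike, 40% were called against 28.3% of all named genes. Skeletal muscle markers had a summed level of 6989 to 12301 in control and 1969 to 2668 with the treatment. Of 4 measured mesothelial and epithelial markers CLDN1 rose and 1 fell, and no erythroid marker was measured. Of 19 endothelial, 9 pericyte and 30 skeletal muscle markers with a probe set, 7, 5 and 6 were measured. Those not kept included KDR (at most 2.36 on any array), VWF (3.32), RGS5 (3.29), MCAM (3.26), MYOD1 (2.18) and TTN (2.77). Others came nearer, such as KCNJ8 (5.24) and ACTC1 (4.92). Whether cells of these types were present, and their part in the results, was not tested.

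Values from the other contrasts, which share arrays with this one, can be set beside it where the levels lay above 5. In DMIOA minus control, where 1.29% of probe sets were called, MFAP5 differed by -1.91, ACADS by 1.06, POSTN by -1.36 and HOXA4 by 0.00. In DMIOA plus retinoic acid minus DMIOA, where 10.8% were called, the same genes differed by -0.51, 0.01, -2.11 and 4.01. GEM, CAV1 and CD44 differed by 0.02, 0.28 and -0.80 in the DMIOA step, and C1QTNF3 by 1.73 (adjusted p = 0.0369). With retinoic acid these 4 genes were below 5 on at least 2 of 3 arrays, so the size of their next step is only bounded. MYOM2, IL16 and DLL1 were below 5 on every DMIOA and every retinoic acid array, and CYP26A1 and TCF21 on every control and every DMIOA array, so those steps have no measured size. The filter kept MYOM2, IL16 and DLL1 only because all 3 control arrays passed, so their fall is partly built in. APOA1 differed by 2.97 (adjusted p = 0.0897) and 1.77 (adjusted p = 0.142), neither of them called, while their sum was called here.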

How the data were processed

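Values are the log2 levels that the authors deposited for each probe set; the submitters' processing notes name GCRMA, without version or settings. The labels' protocols describe TriZol extraction and biotin labelling for a 1-colour Affymetrix chicken array. Scanner files were not used here. Names came from the platform annotation. Chicken probe sets reaching a log2 of 5 on at least 3 arrays were kept (12329), and the brightest probe set stood for each gene. All 9 arrays were fitted in limma 3.58.1 (R 4.3.3) with group means and the replicate number as a block (4 residual degrees of freedom), with Benjamini-Hochberg adjustment over all 12329 and calls under 0.05. Deviations from group means correlated at 0.375 to 0.857 over 9 same-numbered pairs, so the block was kept. Only replicate 3 is set apart by its number: among replicates 1 and 2, same-numbered arrays had r of 0.375 to 0.730 and crossed ones 0.321 to 0.668. A fold is "at least" where the dimmer group had any value under 5, with 5 put in its place. Named genes were the 15 largest rises and falls, up to 4 per list and a fixed set. CYP26C1, HOXA7, HOXD8, COL1A1, COL1A2, COL3A1, NOTCH1, NOTCH2, PDGFRA, RARA, PLIN1, ADIPOQ, SCD and DLK1 were added after values were seen. NTN1, ITGA2, ENG, NT5E, GREM1, C1QA, CD4, KDR, VWF, RGS5, MCAM, MYOD1, TTN, KCNJ8 and ACTC1 lay outside these rules too. So did ALDH1A2, CRABP1, STRA6, LRAT and BCO1. Members and the 37 lists were chosen with earlier results of these data known. The number of arrays limits precision (median SE 0.15). The fit was also run on simulated data with independent noise, which cannot address replicates that are not separate cultures. The outcome of that run is not reported here. Promoter and protein sequences were not analysed here.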

Additional observations from a re-analysis of the deposited data

How the results depend on the processing

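The total of 3546 calls was 3165 to 3836 with other filters, centring, quantile or loess scaling, an intensity trend, a random block, or the 6 arrays alone. With no filter the adjustment ran over 37693 probe sets, and 3832 were called. Array weights gave 7665 (4481 higher, 3184 lower), in a fit whose weights did not fully converge. The replicate block mattered: without it 1623 were called (831 higher, 792 lower). With replicates 1 and 2 of each group averaged, an alternative chosen after seeing the data that leaves 2 samples a group, 1397 were called (610 higher, 787 lower). Leaving out 1 array gave 1343 to 3898 calls (622 to 2139 higher, 721 to 1759 lower), and leaving out a replicate number 578 to 2962 (219 to 1549 higher, 359 to 1413 lower). Without replicate 1, 2 or 3 of all groups the calls were 578, 897 and 2962. The cause of these differences was not tested. Of 114 genes described as called, no direction reversed under any alternative. This was largely built in, because every called probe set had the same sign in each pair. Dropping the block, changing the filter, or leaving out or averaging replicate numbers therefore could not have reversed a direction. The same held for leaving out 1 DMIOA array, which left each pair complete. Only scaling, centring, array weights or leaving out 1 control or retinoic acid array could have reversed a direction. Of the 114 genes, 92 kept the call without the block, 96 without control replicate 1 and 75 without replicate 1 of all groups. The call was kept by 101 with averaged replicates, 112 with no filter, and all 106 that passed a filter of 6. Without scanner files, signal over background could be judged only from the level, so folds of genes near 5 are bounds.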
